A study of Oryza sativa with 36 samples.

Results

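Rewarming of IR29, a chilling-sensitive indica rice, was followed by setting leaves returned to 29 °C for 24 h after 48 h at 4 °C against leaves taken at the end of those 48 h. The comparison holds 6 of the 36 arrays of the series: 3 labelled IR29 recovery and 3 labelled IR29 cold 48 h, all chosen by their labels. No control array enters the change itself, but the spread behind each SE and p-value was estimated over all 36 arrays. Seedlings of both genotypes had grown in soil at 29 °C to the S3 leaf stage, were chilled under 12 h of light and 12 h of darkness, and each array was made from leaf RNA of 1 of 3 biological replicates of its group. The chilling-tolerant japonica landrace Li-Jiang-Xin-Tuan-Hei-Gu (LTH), treated alike, gave 6 further arrays of the same contrast, and 3 arrays of unchilled IR29 seedlings at 29 °C served as the reference level. Recovery followed the 48 h samples by 24 h, so both fell at the same hour of the light cycle, whereas the labels name only 1 control group for all times. The array carries mainly japonica probes, and each genotype was therefore compared with itself.

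Cold-responsive transcription in rice runs in part through the DREB1/CBF factors, which bind promoters of cold-induced genes and are switched on within hours of chilling. Chilling below the range a tropical cultivar tolerates also impairs membranes, photosynthesis and protein folding, and on return to warmth in light the damaged chloroplast is a source of active oxygen. In seedlings that survive chilling, growth and chlorophyll synthesis resume after the return to warmth.

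Of 57258 probe sets, 8448 rose (14.8%) and 8275 fell (14.5%) on rewarming of IR29. The call rested on limma, with p-values adjusted by Benjamini and Hochberg's method (limit 0.05) and a shift of 2-fold or more. Taking the brightest probe set of each of 17905 annotated genes, 4389 genes rose (24.5%) and 3631 fell (20.3%), and the median log2 change over all genes was 0.06. Changes of at least 16-fold were called for 232 genes that rose and 335 that fell. Values are dChip-normalized intensities in arbitrary units, and changes are given as log2 of recovery over 48 h cold ± SE after values below 1 were set to 1. Only 20 values in all were below 1, and the changes of dim genes depend on the floor. Array medians were 10.36 to 11.06 in the 48 h arrays and 9.92 to 10.12 in the recovery arrays. Replicates of the recovery group correlated at 0.961 to 0.967 on the log2 scale, and those of the 48 h group at 0.913 to 0.955, with the lowest values for replicate 2. Leaf mesophyll markers (Rubisco small subunits, Rubisco activase and an antenna gene) summed to between 7130 and 11700 units at 48 h and between 6430 and 8310 after rewarming, none of the 4 called, against 14200 to 15900 in the control. The dimmer probe set of the small subunit gene RBCS was called as fallen (log2 change -1.085). Seed storage genes (7, with 1 called, GluC) summed to 98.6 to 173 at 48 h and 86.6 to 110 after rewarming, and floral MADS genes (10, with 1 called, MADS58) to 334 to 478 and 411 to 591. Both GluC and MADS58 rose from near the bottom of the scale. In such bulk leaf RNA, fewer cells of a type and less RNA per cell cannot be told apart.

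**Figure D1:**
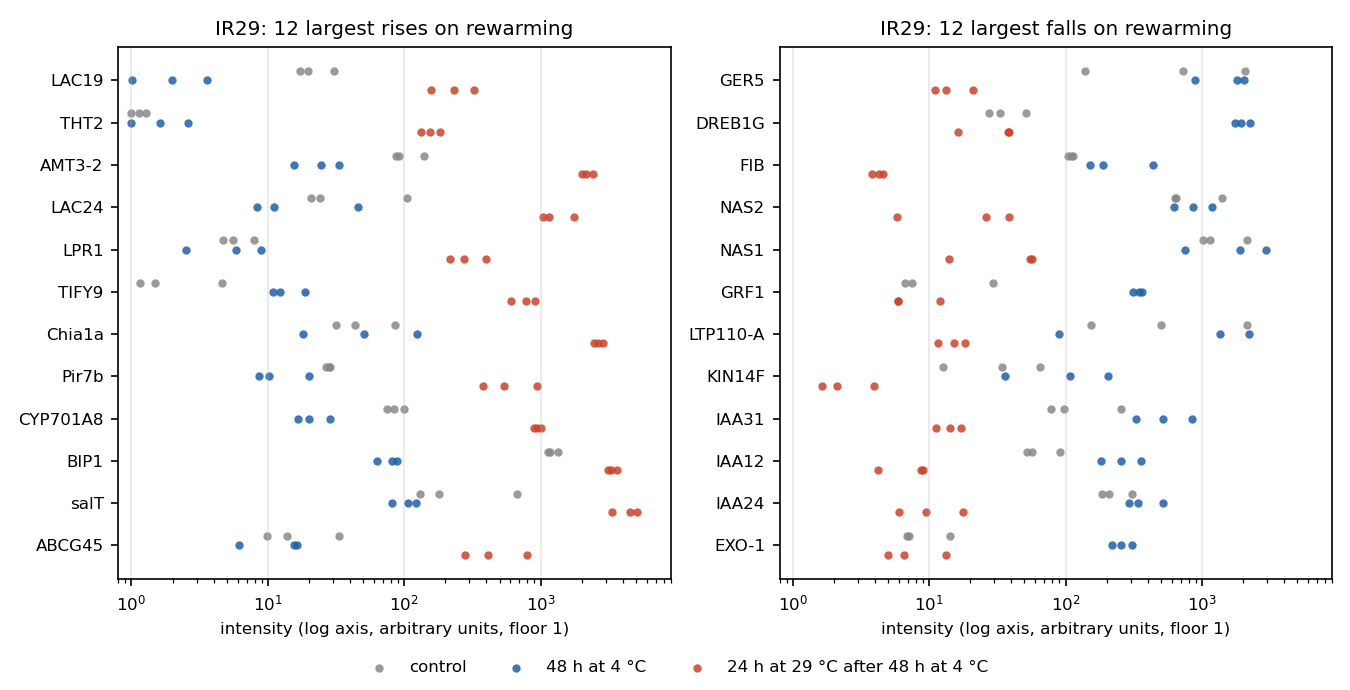
Intensity of each array (log axis, arbitrary units, values below 1 drawn at 1) for the 12 largest rises (left) and 12 largest falls (right) of IR29 genes on rewarming, with control, 48 h cold and rewarmed arrays as separate colours, 3 points each. The 48 h and rewarmed points of these genes do not overlap, which the choice of genes required.

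Cold-induced DREB1 regulators returned to low levels. DREB1G read 1926, 2240.1 and 1747 units after 48 h of cold and 37.8, 16.2 and 38.7 after rewarming, and the arrays of the 2 groups were far apart (log2 change -6.09 ± 0.38, adjusted p = 1.1e-13, limma). The control arrays read 51.5, 27.2 and 33.3, so that control and rewarmed arrays overlapped. DREB1A fell from 1599, 1641 and 1101 to 53, 33.3 and 89.9 (-4.72 ± 0.46, adjusted p = 1.1e-09), and DREB1B fell from 2726, 2391 and 2254 to 244, 98.9 and 419 (-3.50 ± 0.71, adjusted p = 0.00019). Rewarmed arrays of both genes overlapped the control arrays, which spread widely for DREB1B (296, 24.9 and 90.5). DREB1E went below its control, from 122, 72.5 and 257 to 4.13, 4.04 and 3.82 against 35.9, 11 and 14.2 in the control. The median log2 change of the 8 DREB1 and DREB2 genes measured was -2.84. Of these 8, 5 fell and 1 rose, where 20.3% of all genes fell and 24.5% rose. The one that rose was DREB2A, a factor of drought and heat responses and named here after its values were seen, which read 13.9, 15.2 and 14.5 at 48 h and 89.6, 75.8 and 94.8 after rewarming (2.57, adjusted p = 4.2e-05). DREB2B fell from 681, 738 and 602 to 159, 137 and 149 (-2.18 ± 0.16, adjusted p = 5.5e-12), slightly above a control of 105, 108 and 119.

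Other genes that chilling had raised fell with them. TPP1, a trehalose-6-phosphate phosphatase, read 1589, 1885 and 1729 at 48 h and 84.7, 35 and 65.7 after rewarming (-4.90 ± 0.26, adjusted p = 5.2e-15, limma), below every control array (193, 114 and 146). Its family members TPP7 (-4.08 ± 0.24, adjusted p = 4.5e-14) and TPP4 (-2.81 ± 0.43, adjusted p = 3.4e-06) also fell, and none of the 8 trehalose genes measured rose, or 1 without 48 h replicate 2. CPK21, a calcium-dependent protein kinase, went from 109.9, 110.0 and 164 to 4.77, 4.63 and 2.73 (-5.0 ± 0.50, adjusted p = 2.1e-09), all its rewarmed arrays being close to the bottom of the scale, as were its control arrays. Over 51 calcium sensor kinases and their partners, 20 fell and 6 rose. ABA8OX1, which inactivates abscisic acid, fell from 4345, 3917 and 3981 to 598, 364 and 715 (-2.92 ± 0.31, adjusted p = 5.1e-09), and the protein phosphatase PP2C32 fell from 1841, 2018 and 1563 to 174, 145 and 156 (-3.51 ± 0.20, adjusted p = 1.7e-14). Among 69 abscisic acid genes, 19 fell and 13 rose, a median of -0.27, where 20.3% of all genes fell and 24.5% rose. HSF07, a heat shock factor, read 1121, 2106 and 1082 and then 61.8, 44.2 and 71.2 (-4.56 ± 0.26, adjusted p = 1.7e-14). Against the control, rewarmed leaves still held more ABA8OX1 (1.19 ± 0.31, adjusted p = 0.0035), while PP2C32 (-0.10 ± 0.20, adjusted p = 0.77) and HSF07 (-0.49 ± 0.26, adjusted p = 0.17) were not called.

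Several cold-induced factors came down only in part. MYB4, a MYB regulator of cold tolerance genes, read 2269.7, 2079.5 and 2446 at 48 h and 912, 849 and 1021 after rewarming (-1.29 ± 0.23, adjusted p = 3.7e-05, limma), while the control arrays read 139, 76.9 and 70.8. The rewarmed arrays lay between the 2 other groups and overlapped neither. NAC068 showed the same order, with 1468, 1306 and 1605 at 48 h, 502, 259 and 224 after rewarming and 61.5, 58.9 and 49.3 in the control (-2.24 ± 0.30, adjusted p = 4.9e-07). WRKY71, a WRKY factor of defence and abscisic acid signalling, moved from 3629, 3428 and 3512 to 2142, 2191 and 1981, which did not reach 2-fold (-0.74 ± 0.19, adjusted p = 0.0019). Its dimmer probe set fell further and was called (log2 change -3.01), so the extent of its return is uncertain. MYBS3, a MYB factor that acts in cold and sugar signalling, fell from 2271, 2541 and 2139 to 1054, 1034 and 872 (-1.23 ± 0.11, adjusted p = 1.8e-10), a fall that rests on 1 probe set because the dimmer one was not called (0.52). MYB3R-2, a MYB factor of the cell cycle and cold tolerance, was not called (-0.58 ± 0.14, adjusted p = 0.0017). The study reports late chilling induction of MYBS3 and MYB3R-2 in LTH only, so no return from cold induction is read here for either. Of the 8 NAC factors 4 fell and none rose, and of 6 WRKY genes WRKY76 (-3.75 ± 0.76, adjusted p = 0.00017) and WRKY24 (-1.96 ± 0.32, adjusted p = 1.1e-05) fell and none rose. Over all genes 20.3% fell and 24.5% rose. Without 48 h replicate 2, 1 NAC and 1 WRKY gene rose, and 1 NAC gene rose without recovery replicate 2. That WRKY gene was WRKY51, which read 202, 507 and 345 and then 656, 746 and 757 (1.13 ± 0.45, adjusted p = 0.051), so that its groups did not overlap but its p was on the threshold. The count of risen WRKY genes was also 1 under quantile normalization, median centring and the replicate number as a block. It was 1 again with only the compared groups and without the 40% dimmest probe sets, so that none risen depends on the processing. Of the 6 cold factors that the study itself singled out on these arrays, 4 fell, which is no independent evidence of a direction.

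Most clock genes fell from the 48 h samples to the recovery samples taken 24 h later. PRR1 (TOC1), an evening gene, read 639, 862 and 657 at 48 h and 126, 101 and 94 after rewarming (-2.75 ± 0.20, adjusted p = 4.6e-12, limma). CCA1, a morning gene, fell from 1974, 2444 and 1450.5 to 434, 409.8 and 482 (-2.12 ± 0.22, adjusted p = 5.3e-09) and stood below all 3 control arrays (2299, 2868 and 3228), while its dimmer probe set was not called (-0.97). PCL1 (-2.84 ± 0.37, adjusted p = 2.3e-07) and PRR95 (-2.29 ± 0.13, adjusted p = 1.1e-14) fell too. Altogether 5 of 7 clock genes fell and none rose, against 20.3% of all genes that fell. In LTH 4 of the 7 fell and none rose, with a median log2 change of -1.57, against 15.9% of all genes that fell.

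**Figure D2:**
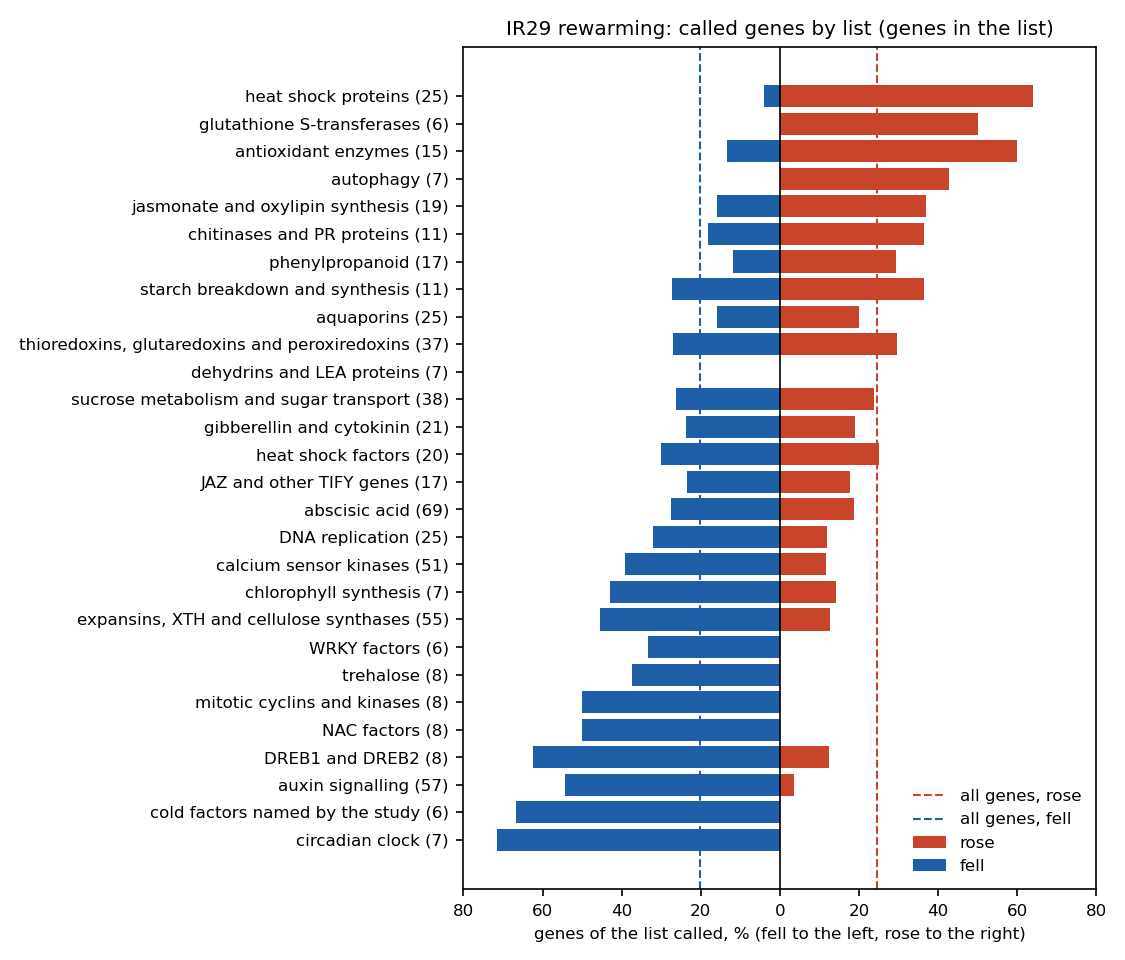
Share of the genes of each list, in percent, that rose (right, red) or fell (left, blue) on rewarming of IR29, with the number of genes measured in parentheses and dashed lines for all 17905 genes (24.5% rose, 20.3% fell). Lists fixed at the outset with at least 5 measured genes are shown, without those added later. Among the lists drawn, heat shock proteins have the highest share of risen genes, 16 of 25, and the clock genes the highest share of fallen genes, 5 of 7.

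Most protein folding genes of the endoplasmic reticulum rose. BIP1, the HSP70 chaperone of the endoplasmic reticulum, read 63.5, 88.9 and 81.7 units after 48 h of cold and 3310.0, 3614 and 3132 after rewarming (5.44 ± 0.21, adjusted p = 1.4e-17, limma). All rewarmed arrays exceeded the control arrays, which read 1341, 1171 and 1132. The protein disulphide isomerase genes PDIL2-3 and PDIL2-2 followed the same course. PDIL2-3 went from 41.3, 48.9 and 51.9 to 1561, 1731 and 1285 (5.00 ± 0.34, adjusted p = 6.1e-13) against a control of 589, 519 and 555. PDIL2-2 went from 120.1, 133 and 138 to 1842, 1968 and 1751 (3.83 ± 0.14, adjusted p = 3.9e-18) against a control of 537, 542 and 534. Of 14 endoplasmic reticulum folding genes, a list added after the values were seen, 9 rose and only PDIL1-3 fell (-3.55 ± 0.33, adjusted p = 3.7e-10), with a median log2 change of 2.07. Over all genes 24.5% rose and 20.3% fell.

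Heat shock proteins of the cytosol and organelles rose in 16 of 25 cases, with a median of 1.59, and 1 fell (HSP17.8, -1.22, outside the rule for named genes). Without 48 h replicate 2, 12 rose. None fell with only the compared groups or without recovery replicate 1, and 2 fell without 48 h replicate 3. HSP16.0, a small heat shock protein, read 5.12, 13.3 and 15.1 at 48 h and 212, 406 and 333 after rewarming (4.92 ± 0.74, adjusted p = 2.3e-06, limma), still under a control of 838, 641 and 940.0. CLPB-M, a mitochondrial ClpB-type disaggregase, rose from 10, 13.3 and 13.7 to 133, 183 and 158 (3.68 ± 0.68, adjusted p = 5.2e-05), above its control of 105, 91.9 and 113. The HSP90 gene HSP81-2 was high throughout, with 2994, 2511 and 3233 and 3329.9, 3569 and 3125, and was not called (0.20 ± 0.11, adjusted p = 0.15). Heat shock factors split by member. HSFB2B rose from 4.75, 8.73 and 2.56 to 159, 125 and 146 (4.91 ± 0.93, adjusted p = 7e-05) and HSFB2C from 21.5, 34.6 and 40.1 to 337, 426 and 390.3 (3.63 ± 0.84, adjusted p = 0.00078), both class B factors, although the dimmer probe set of HSFB2B was not called (0.25), while HSF07 and HSF03 (-3.79 ± 0.38, adjusted p = 1.9e-09) fell. Over 20 heat shock factors, 5 rose and 6 fell, where 24.5% of all genes rose and 20.3% fell.

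Chitinases, which attack fungal cell walls, were among the strongest rises. Chia1a read 51.1, 18.1 and 125 at 48 h and 2888, 2643 and 2480.4 after rewarming (5.78 ± 0.51, adjusted p = 1.7e-10, limma). The control arrays (43.7, 85.2 and 31.4) were as low as the 48 h arrays. Cht3 went from 26.9, 7.57 and 20.6 to 469.6, 468 and 616 (4.99 ± 0.49, adjusted p = 1.1e-09), and Cht2 went from 1112, 1152 and 871 to 5553, 5607 and 5466 (2.42 ± 0.34, adjusted p = 9.4e-07), the latter on top of a level that cold had already raised from 396, 358 and 309. Rewarmed arrays of all 3 genes lay close together and above every 48 h and control array of the same gene. Of 11 chitinase and PR genes, 4 rose (Chia1a, Cht3, Cht2 and PBZ1, 1.31) and 2 fell (Cht11, -2.81, and Cht10, -1.15). PBZ1 and Cht10 lay outside the rule for named genes. Only 1 fell when recovery replicate 1 or 2 was left out or only the compared groups were fitted. Among all genes 24.5% rose and 20.3% fell. The lectin gene salT rose from 81.2, 122 and 107 to 5097, 4541 and 3342 (5.38 ± 0.67, adjusted p = 1.2e-07), and Pir7b, an esterase gene, rose from 20.2, 8.57 and 10.1 to 543, 381 and 934 (5.58 ± 0.46, adjusted p = 4.1e-11). Neither pair of groups overlapped.

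Several genes of jasmonate synthesis rose in the rewarmed leaves. AOS3, an allene oxide synthase, went from 18.9, 8.72 and 21.9 to 649, 281 and 135 (4.24 ± 0.58, adjusted p = 5.1e-07, limma). OPR5, of the 12-oxophytodienoate reductase family, went from 28.7, 45.9 and 55.5 to 623, 421 and 464 (3.57 ± 0.36, adjusted p = 2.7e-09). LOX9, a lipoxygenase, went from 147, 158 and 157 to 1158, 949 and 1058 (2.77 ± 0.38, adjusted p = 5e-07). In each case the rewarmed arrays exceeded all 48 h and all control arrays, although those of AOS3 differed among themselves by several fold. OPR1 was high in both groups, with 997, 2335 and 1459 at 48 h and 3516, 2801 and 3605 after rewarming, and was not called (1.13 ± 0.59, adjusted p = 0.14). Of 19 genes of the pathway, 7 rose and 3 fell, where 24.5% of all genes rose and 20.3% fell. The 3 that fell were AOS4, AOS2 and AOS1. Only 1 fell without 48 h replicate 2, which held AOS4 at 235 units against 3.91 and 6.1 in the other 2 arrays. The same count was reached without recovery replicate 2 or 3 and with a floor of 3.16.

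JAZ proteins repress jasmonate signalling and are themselves induced by it. TIFY9 rose from 12.3, 10.9 and 18.7 to 908, 609 and 776 (5.79 ± 0.95, adjusted p = 1e-05, limma), with control arrays of 1.48, 4.6 and 1.16. TIFY10c rose from 89.2, 140.2 and 103 to 841, 663 and 693 (2.74 ± 0.50, adjusted p = 4.9e-05). TIFY11a moved the other way, from 1095, 1304 and 1318 to 143, 90.7 and 138 (-3.35 ± 0.46, adjusted p = 6.9e-07), back within reach of its control (140.5, 60.9 and 59.9). In total 3 of 17 genes of the TIFY family rose, 4 fell and 10 were not called, where 24.5% of all genes rose and 20.3% fell.

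Phenylpropanoid and phytoalexin genes were raised in part. CAD2, a cinnamyl alcohol dehydrogenase of lignin synthesis, read 81.5, 179 and 137 at 48 h and 2021, 2354 and 2081 after rewarming (4.09 ± 0.42, adjusted p = 2.7e-09, limma). 4CL5, a 4-coumarate-CoA ligase, went from 53.4, 49.3 and 121 to 599.7, 607 and 648 (3.18 ± 0.45, adjusted p = 8.5e-07), and 4CL-3 went from 96.6, 93.6 and 113 to 1017, 1214 and 1094 (3.45 ± 0.34, adjusted p = 1.4e-09). Of 17 phenylpropanoid genes 5 rose and 2 fell, or 1 without 48 h replicate 2 or recovery replicate 1, shares that are close to or under those of all genes. THT2, a hydroxycinnamoyl transferase that forms phenolic amides, was at the bottom of the scale at 48 h (1.61, 2.58 and 1) and read 154, 132 and 184 after rewarming (6.59 ± 0.67, adjusted p = 2.8e-09). Its log2 change depended on the floor and was 5.62 with a floor of 3.16. CYP701A8, a cytochrome P450 of diterpenoid phytoalexin synthesis, went from 20.2, 28.7 and 16.6 to 939, 893 and 1015 (5.48 ± 0.56, adjusted p = 2.6e-09). The diterpene synthase gene KSL10 went from 5.68, 1.92 and 6.83 to 52, 160.2 and 133 (4.62 ± 0.53, adjusted p = 2.6e-08). Of 13 diterpenoid phytoalexin genes, in a list added after the values were seen, 6 rose and none fell. Leaving out the 40% dimmest probe sets, 3 rose. Over all genes 24.5% rose and 20.3% fell.

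Laccases, copper oxidases of the cell wall, divided. LAC19 rose from 1.01, 1.99 and 3.58 to 158, 328 and 233 (6.89 ± 0.58, adjusted p = 5e-11, limma), the largest rise among the named genes, and the change was 6.12 with a floor of 3.16. LAC24 rose from 45.6, 8.29 and 11.2 to 1772, 1037 and 1148 (6.31 ± 0.71, adjusted p = 1.7e-08). LAC4 (-3.31 ± 0.99, adjusted p = 0.0086, not called without recovery replicate 3), LAC20 (-2.58 ± 0.56, adjusted p = 0.00043) and LAC7 (-1.85, outside the rule for named genes) fell, out of 9 laccases in a list added after the values were seen. Among all genes 24.5% rose and 20.3% fell. Another multicopper oxidase gene, LPR1, rose from 8.97, 5.89 and 2.52 to 400.4, 274 and 216 (5.81 ± 0.48, adjusted p = 4.9e-11). For all 3 risen genes no 48 h array reached a rewarmed one, and the control arrays of LAC19 (17.2, 30.8 and 19.7), LAC24 (24.2, 104 and 20.7) and LPR1 (5.54, 7.9 and 4.69) were also below the rewarmed level.

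**Figure D3:**
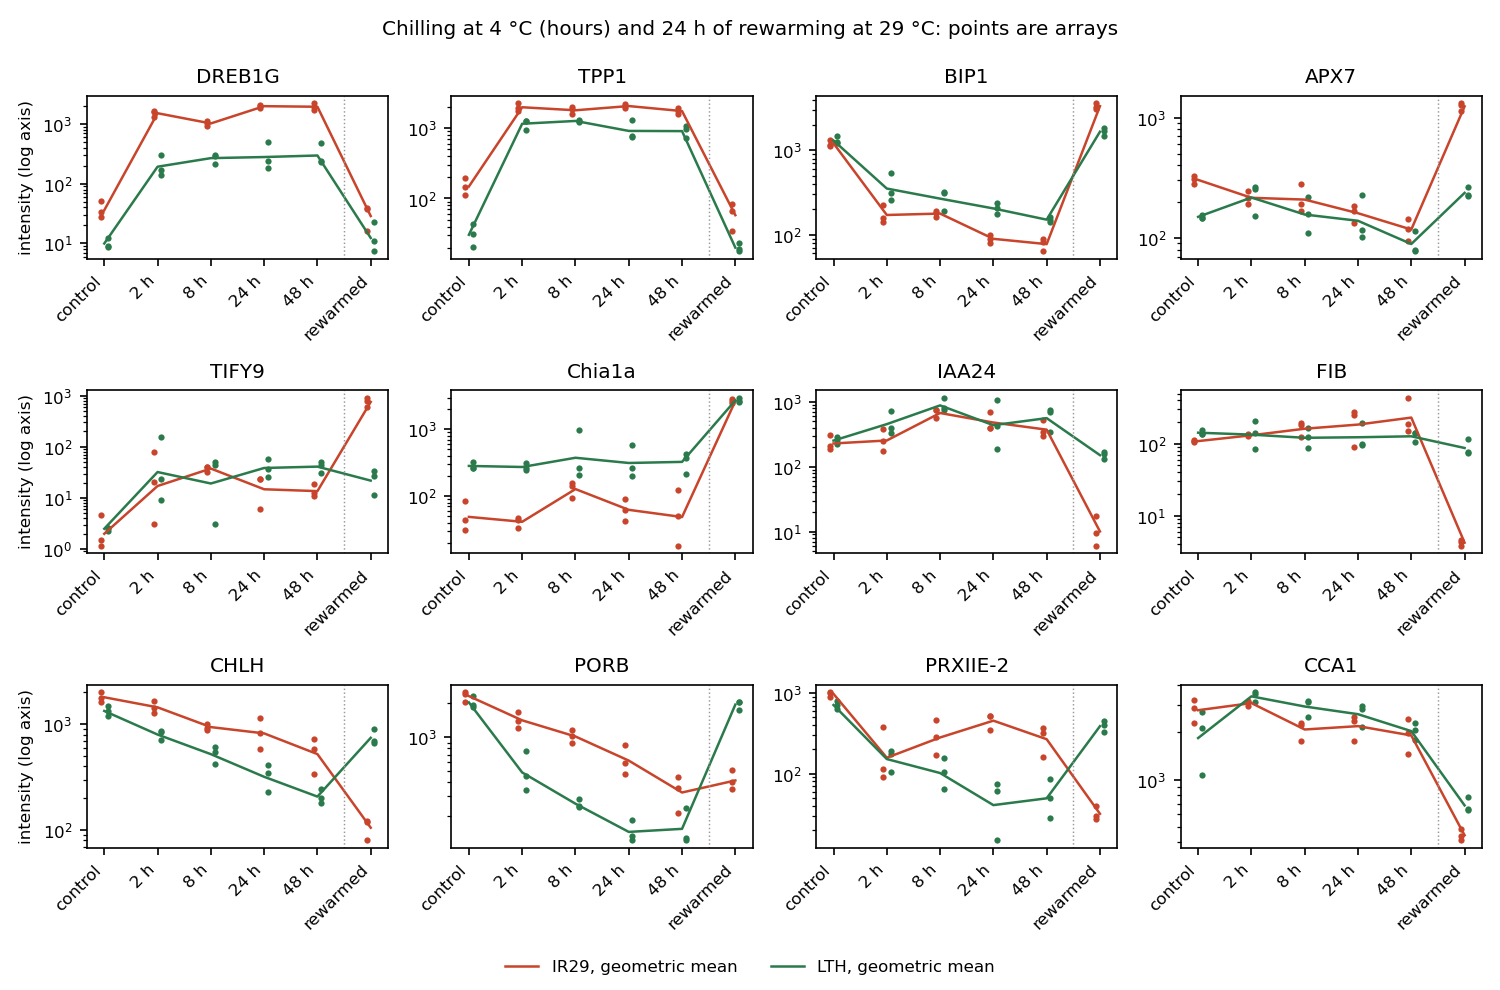
Intensity (log axis) of 12 genes in unchilled seedlings, after 2, 8, 24 and 48 h at 4 °C and after 24 h of rewarming, with arrays as points and the geometric mean of 3 arrays as a line, IR29 in red and LTH in green. DREB1G and TPP1 return to low levels in both genotypes, BIP1 rises past its control, and FIB and IAA24 drop to 17.6 units or less in rewarmed IR29 while LTH stays at 73.5 or more. The probes are mainly japonica, so levels of the genotypes are not strictly comparable.

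Growth genes fell to very low levels. FIB, a tryptophan aminotransferase of auxin synthesis, read 151, 436 and 189 at 48 h and 3.82, 4.27 and 4.61 after rewarming (-5.78 ± 0.37, adjusted p = 2.4e-13, limma). The control arrays were uniform at 114, 104 and 109, below every 48 h array and above every rewarmed one. Aux/IAA genes, which encode auxin-induced repressors, went the same way. IAA24 fell from 339, 292 and 517 to 17.6, 9.45 and 6.03 (-5.21 ± 0.44, adjusted p = 5.6e-11), IAA31 from 519, 331 and 847 to 14.2, 11.2 and 17.1 (-5.24 ± 0.69, adjusted p = 2.8e-07) and IAA12 from 182, 257 and 359 to 8.73, 9 and 4.18 (-5.21 ± 0.68, adjusted p = 2.4e-07). Every rewarmed array of these 3 genes was below every control array of the same gene, the lowest control readings being 186 for IAA24, 78.9 for IAA31 and 52.5 for IAA12. A second, dimmer probe set of IAA31 was called in the other direction (log2 change 1.54), so the fall of that gene rests on 1 probe set. Of 57 auxin genes 31 fell and 2 rose, with a median of -1.17, where 20.3% of all genes fell and 24.5% rose. The 2 that rose were GH3-8 (1.81) and IAA16 (1.14), both outside the rule for named genes, and neither was called without 48 h replicate 2. Of the 2, 1 was called without 48 h replicate 1 or recovery replicate 1 or 3. The count was also 1 with a floor of 3.16, without the 40% dimmest probe sets and with only the compared groups. Against the unchilled control, 26 of the 57 were lower (18.7% of all genes) and 4 higher (11.8% of all genes) in the rewarmed leaves. Against the same control, 3 were lower (22.9% of all genes) and 13 higher (11.5% of all genes) at 48 h. These 2 comparisons share their arrays with the main one.

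Many wall-building genes were lower too. CESA4, a cellulose synthase of secondary walls, read 202, 275 and 422 at 48 h and 14.4, 11.1 and 9.75 after rewarming (-4.62 ± 0.87, adjusted p = 7.1e-05, limma), and CESA7, of the same complex, read 139.9, 148 and 286 and 14.4, 14.2 and 9.46 (-3.86 ± 0.73, adjusted p = 6.8e-05). CSLF6, which makes mixed-linkage glucan of grass cell walls, fell from 402, 398 and 669 to 32, 27.7 and 13.5 (-4.38 ± 0.59, adjusted p = 4.3e-07). All 3 stood below their controls after rewarming, with log2 changes of -3.93, -3.95 and -4.08. For CESA4 the dimmer probe set was not called (-0.97). CESA8, a bright member of the list, was not called (-1.32), nor was the brighter probe set of CESA1 (-1.12), whose dimmer one fell (-1.99). Among 55 expansin, xyloglucan endotransglucosylase and cellulose synthase genes 25 fell and 7 rose, a median of -1.32. In this list 4 rose without 48 h replicate 1 and 3 without recovery replicate 3. Over all genes 20.3% fell and 24.5% rose. Of 25 DNA replication genes 8 fell, 3 rose and 14 were not called, and 5 fell without 48 h replicate 3, close to the 20.3% of all genes. MCM5, a subunit of the replicative helicase, read 62.9, 14.4 and 112 and then 6.17, 2.09 and 4.41 (-3.60 ± 0.89, adjusted p = 0.0016). The kinesin gene KIN14F read 107, 35.8 and 206 and then 3.94, 2.11 and 1.65 (-5.27 ± 1.05, adjusted p = 0.00014), and 7 of 28 kinesins fell, 3 rose and 18 were not called, in a list added after the values were seen, also a share near that of all genes. No kinesin rose without 48 h replicate 2. Only 1 rose without 48 h replicate 1 or any of the recovery replicates, or with the replicate number as a block.

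Some of these growth genes shared a feature of the arrays. At 48 h replicate 2 was the lowest array for 14 of the 31 auxin genes that fell (45.2%) and 14 of the 25 wall genes (56%). It was also the lowest for 6 of the 8 replication genes (75%) and 6 of the 7 kinesins (85.7%). The share over all 3631 genes that fell was 37.4%, to which the auxin genes were close. In the control, replicate 2 was the highest array for 22 of the 31, 24 of the 25, 8 of the 8 and 6 of the 7 in the same order, against 46.1% of all genes that fell. LTP110-A, a lipid transfer protein gene, read 1353, 89.8 and 2217 at 48 h, 501, 2149.7 and 154 in the control and 11.6, 15.3 and 18.2 after rewarming (-5.45 ± 1.59, adjusted p = 0.0069, limma). Its rewarmed arrays were uniformly low. Both KNOX meristem genes summed to between 8.83 and 49.8 units at 48 h, 6.45 to 14.3 after rewarming and 13.4 to 38.8 in the control, and neither was called. The part of such tissue markers in the falls was not tested. Without 48 h replicate 2, 29 auxin genes, 27 wall genes, 10 replication genes and 10 kinesins fell.

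Further genes with large falls belonged to metal handling, surface and hormone response. Nicotianamine synthases make the metal chelator nicotianamine. NAS2 fell from 854, 1177 and 625 to 5.77, 38.5 and 26.3 (-5.57 ± 1.15, adjusted p = 0.00023, limma) and NAS1 from 2929.5, 754 and 1902 to 13.9, 57.2 and 54.9 (-5.52 ± 1.23, adjusted p = 0.00054), far below controls of 645, 1409 and 631 and 1142, 2152 and 1012. GER5, a germin-like gene, fell from 1812, 887 and 2049.7 to 11, 20.8 and 13.3 (-6.68 ± 0.95, adjusted p = 1.1e-06), the largest fall among the named genes. RR2, a response regulator of cytokinin signalling, was level in the control (316, 276 and 306) and at 48 h (299, 312 and 191) and fell to 16, 11.1 and 25.1 (-3.99 ± 0.28, adjusted p = 1.1e-12). By contrast GRF1 had been raised by cold, to 315, 364 and 347 from 7.45, 29.5 and 6.62, and returned to 5.92, 5.94 and 12 (-5.51 ± 0.69, adjusted p = 1.2e-07).

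Most transcripts of chlorophyll synthesis fell further or stayed low in rewarmed IR29. CHLH, the large subunit of magnesium chelatase, read 586, 724 and 337 at 48 h and 119, 123 and 80.3 after rewarming (-2.31 ± 0.24, adjusted p = 4.9e-09, limma). Every rewarmed array was below every 48 h array, and these were below the control (1789.7, 1627 and 2006). CHLD, another subunit, went from 626, 758 and 418 to 196, 203 and 162 (-1.65 ± 0.21, adjusted p = 1.6e-07). CHLG, chlorophyll synthase, went from 143, 199.9 and 204 to 73.1, 88.9 and 56.5 (-1.33 ± 0.33, adjusted p = 0.0017). CHLI, the ATPase subunit, was the one of 7 genes that rose, from 8.13, 10.6 and 4.81 to 18.5, 25.4 and 11.9 (1.25 ± 0.48, adjusted p = 0.038). It was not called with only the compared groups, without 48 h replicate 1 or 3 or without recovery replicate 1 or 2. PORB, a protochlorophyllide oxidoreductase, had fallen in the cold from 2515, 2066 and 2424 to 355, 448 and 213 and read 398, 511 and 349 after rewarming, with overlapping arrays (0.36 ± 0.27, adjusted p = 0.34). Altogether 3 of the 7 fell and 3 were not called, where 20.3% of all genes fell. Against the control 6 of the 7 were lower after rewarming, all but GSA, where 18.7% of all genes were lower.

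Photosystem and antenna genes did not regain their control level. PSAH, a subunit of photosystem I, read 1016, 1594 and 569.5 at 48 h and 655, 785 and 582 after rewarming (-0.54 ± 0.23, adjusted p = 0.063, limma), against 3908, 3600.4 and 4178 in the control. CAB2R, a chlorophyll a/b-binding antenna gene, read 2101, 3780.1 and 1185 and 2453, 2273 and 1282 (-0.13 ± 0.29, adjusted p = 0.77), against 5233, 5861 and 5475 in the control. The groups overlapped for both. PSAG, the other photosystem subunit measured, was not called, but its dimmer probe set was called as fallen (-2.77). RCABP89, another antenna gene, fell from 2721, 3258 and 1887 to 1157, 1399 and 994 (-1.13 ± 0.14, adjusted p = 9.4e-08), a change under 2-fold without 48 h replicate 2. SGR, the stay-green protein that starts chlorophyll breakdown, rose from 415, 308 and 441 to 1514, 1421 and 1644 (1.99 ± 0.25, adjusted p = 1.1e-07) with a control of 399, 347 and 363. RCCR1, which acts later in chlorophyll breakdown, rose from 201, 184 and 231 to 1666, 1986 and 1531 (3.07 ± 0.22, adjusted p = 1.5e-12). The chlorophyll b reductase gene NOL fell (-1.02 ± 0.20, adjusted p = 0.00014), and this call was lost under median centring and without 48 h replicate 2 or recovery replicate 1 or 3, when the change fell short of 2-fold.

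**Figure D4:**
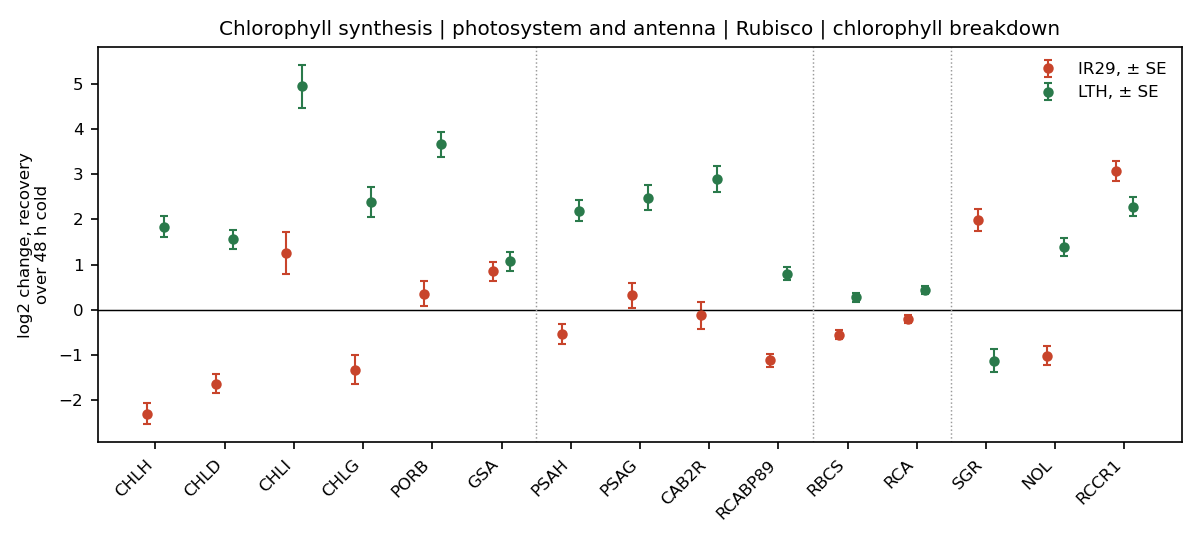
Log2 change on rewarming ± SE of 15 chloroplast genes in IR29 (red) and LTH (green), from the fit over all arrays, with 3 arrays in each group. CHLH, CHLD and CHLG are below 0 in IR29 and above it in LTH, and SGR is the reverse.

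Antioxidant genes rose more often than they fell. APX7, an ascorbate peroxidase of the chloroplast, read 144, 93.9 and 119 at 48 h and 1313, 1283 and 1126 after rewarming (3.40 ± 0.26, adjusted p = 9.7e-12, limma), above its control of 281, 325 and 306. APX2, a cytosolic member, rose from 741, 887 and 1109.7 to 4032, 4359 and 4008 (2.20 ± 0.27, adjusted p = 7.1e-08), close to its control (3577, 3664 and 3798). Catalase gene CAT-B rose from 537, 540.3 and 779.8 to 2627, 2546 and 2096 (1.98 ± 0.18, adjusted p = 1.6e-10), whereas CAT-A went from 1308, 1498 and 1565 to 975, 1266 and 584 without reaching 2-fold (-0.70 ± 0.25, adjusted p = 0.03), although its dimmer probe set was called as fallen (-1.13). Of 15 antioxidant genes 9 rose, and APX8 (-1.50) and MDAR2 (-1.10), both outside the rule for named genes, fell. Without 48 h replicate 2, 1 fell. Over all genes 24.5% rose and 20.3% fell. Peroxiredoxin genes moved apart: PRXIIE-1 rose from 59.8, 58.7 and 84.4 to 819, 896 and 834 (3.67 ± 0.27, adjusted p = 4.7e-12), and PRXIIE-2 fell from 323, 368 and 162 to 27.1, 39.5 and 30.1 (-3.07 ± 0.50, adjusted p = 8.8e-06). All 3 glutathione S-transferase genes that were called, of 6 measured, rose (GST-I 2.60, GST1 2.44 and GST-II 1.81).

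Genes of starch metabolism moved both ways, with 4 of 11 risen and 3 fallen, where 24.5% of all genes rose and 20.3% fell. Only 2 rose without 48 h replicate 2 or recovery replicate 1. AGPS2, the small subunit of ADP-glucose pyrophosphorylase, read 947, 1039 and 1054 in the control and 945, 888 and 848 at 48 h and fell on rewarming to 167, 171 and 131 (-2.52 ± 0.20, adjusted p = 2.2e-11, limma). The starch synthase gene SS2 fell from 238, 339 and 190.1 to 57.8, 61 and 52.1 (-2.13 ± 0.20, adjusted p = 3.4e-10). AMY1.3, an alpha-amylase gene raised in the cold from 5.14, 6.11 and 2.13 to 279, 566 and 531, read 1922, 235 and 106 after rewarming and was not called (-0.27 ± 0.71, adjusted p = 0.81). Its probe sets disagreed, since the dimmer one was called as fallen (log2 change -4.86). The sugar transporter gene SWEET2b fell from 881, 1830.4 and 421 to 87.9, 98.2 and 106 (-3.18 ± 0.46, adjusted p = 1.4e-06). Over 38 genes of sucrose metabolism and sugar transport 9 rose and 10 fell, near the share of all genes.

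Water channels and transporters differed by member as well. TIP1, an aquaporin of the vacuole membrane, had fallen in the cold from 813, 471 and 733 to 24.5, 55.1 and 27.1 and returned to 994, 475 and 842 (4.47 ± 0.59, adjusted p = 2.7e-07, limma). The plasma membrane aquaporin PIP1;3 returned from 90.5, 519.6 and 78.6 to 1515, 1275 and 1369 (3.16 ± 0.50, adjusted p = 5.5e-06), close to its control (1592, 1329 and 1474). Lsi6, a silicon channel, went on falling, from 371, 649 and 297 to 17.9, 28.2 and 16.5 (-4.35 ± 0.29, adjusted p = 4.1e-13) against a control of 921, 1126 and 1199.8. Of 25 aquaporin genes 5 rose and 4 fell, where 24.5% of all genes rose and 20.3% fell. Without recovery replicate 2, 3 rose, and 2 fell without recovery replicate 3 or with only the compared groups. AMT3-2, an ammonium transporter, rose from 24.6, 33.5 and 15.6 to 2138, 2432 and 2019 (6.55 ± 0.34, adjusted p = 4.3e-15), far past its control of 140.1, 92.1 and 87.4. ABCG45, an ABC transporter, rose from 16.2, 6.11 and 15.4 to 801, 410.0 and 277 (5.29 ± 0.72, adjusted p = 5.1e-07). OAT, ornithine aminotransferase, an enzyme of arginine breakdown, rose from 157, 200.4 and 187 to 1858, 1830.1 and 1698 (3.31 ± 0.16, adjusted p = 8.6e-16), while the proline synthesis gene P5CS1 read 829, 814 and 804 and 921, 936 and 882 (0.16 ± 0.13, adjusted p = 0.35).

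The same contrast in LTH, on 6 other arrays, called 7892 probe sets that rose (13.8%) and 7019 that fell (12.3%), or 4208 genes that rose (23.5%) and 2842 that fell (15.9%). Genes that rose in both genotypes numbered 2316, which is 52.8% of those of IR29 and 55% of those of LTH. Genes that fell in both numbered 1513, or 41.7% of those of IR29 and 53.2% of those of LTH. Across the 17905 genes the log2 changes correlated at r = 0.557, given as a description over genes measured on the same array type. The test of the difference between genotypes called 5355 probe sets with a higher change in IR29 (9.35%) and 5253 with a lower one (9.17%), or 2536 genes (14.2%) and 2599 genes (14.5%). Opposite calls were made for 495 genes, and in all of them the difference itself was called: 144 rose in IR29 and fell in LTH, and 351 fell in IR29 and rose in LTH.

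**Figure D5:**
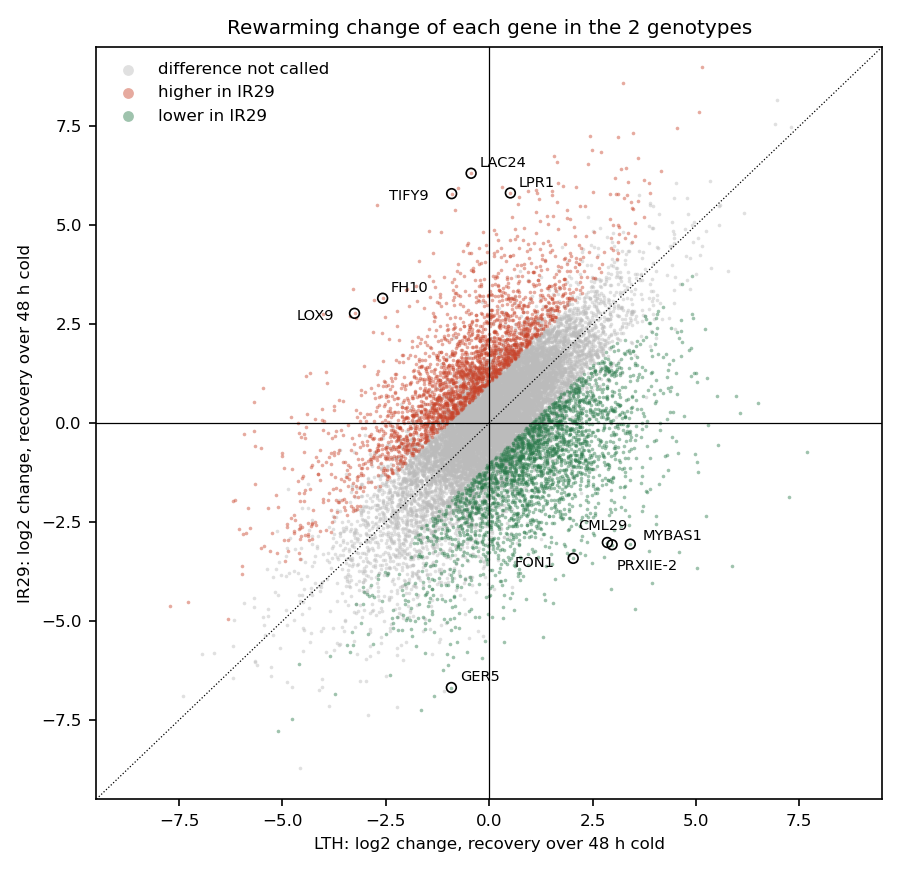
Log2 change on rewarming of each of 17905 genes in LTH (x axis) and IR29 (y axis), coloured by whether the difference between genotypes was called, with a dotted line of equal change and rings on the 5 largest named differences in each direction. LAC24, TIFY9 and LPR1 rise in IR29 and were not called in LTH, and MYBAS1, PRXIIE-2, CML29 and FON1 fall in IR29 while they rise in LTH.

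Chloroplast genes separated the genotypes. In LTH 6 of the 7 chlorophyll synthesis genes rose and none fell, with a median log2 change of 1.84 against -1.33 in IR29. The difference was called for 6 of 7, all lower in IR29. Over all genes 23.5% rose and 15.9% fell in LTH. A lower change in IR29 was called for 14.5% of all genes and a higher one for 14.2%. CHLH in LTH rose from 203, 244 and 180.2 at 48 h to 898, 664 and 694 after rewarming, and the difference was -4.15 ± 0.34, adjusted p = 4.3e-10 (IR29 minus LTH, limma). PORB in LTH rose from 127, 236 and 122 to 2064, 1741 and 2075 (difference -3.31 ± 0.38, adjusted p = 1.4e-07), and CAB2R from 543, 780.5 and 1092 to 5727, 5621 and 5904 (difference -3.03 ± 0.41, adjusted p = 2e-06). SGR in LTH fell from 1980.4, 2139 and 1216 to 1043, 889 and 526 (difference 3.12 ± 0.35, adjusted p = 8.3e-08). At 48 h 2 of its 3 LTH arrays read higher than any rewarmed IR29 array, a comparison of levels that mainly japonica probes may shift. PRXIIE-2 in LTH rose from 49.6, 85.4 and 28.6 to 444, 331 and 398 (difference -6.05 ± 0.71, adjusted p = 1.6e-07). CAT-A in LTH rose from 523, 915 and 544 to 2482, 2162 and 3434 (difference -2.75 ± 0.36, adjusted p = 9.4e-07). As in IR29, antioxidant genes rose more often than they fell in LTH, where 8 of the 15 rose and none fell. Of these 15 genes, 5 had a lower and 3 a higher change in IR29.

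Jasmonate genes separated them in the other direction. Of 19 synthesis genes, 3 rose and 7 fell in LTH, and 8 had a called difference, all higher in IR29. Among all genes 23.5% rose and 15.9% fell in LTH, and 14.2% had a higher change in IR29. LOX9 in LTH fell from 669, 763 and 374 to 68, 83.2 and 38.5 (difference 6.03 ± 0.53, adjusted p = 1.4e-09, limma). TIFY9 in LTH read 43.2, 50.8 and 31.3 and 27.4, 33.4 and 11.3, which overlapped, and was not called (difference 6.70 ± 1.35, adjusted p = 0.00038). WRKY24 in LTH fell from 1181, 1313 and 1259.6 to 69.3, 50.8 and 40 (difference 2.62 ± 0.46, adjusted p = 6.9e-05). The partial return of MYB4 in IR29 was likewise smaller than the fall in LTH, from 1303, 1496 and 2269 to 245, 348 and 276 (difference 1.23 ± 0.33, adjusted p = 0.0061).

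Some growth genes fell in IR29 and not in LTH. FIB in LTH read 139, 140.1 and 105 at 48 h and 77.2, 73.5 and 118 after rewarming, a change of -0.54 (difference -5.24 ± 0.52, adjusted p = 1.2e-08, limma). RR2 in LTH read 215, 302 and 210.0 and 347, 232 and 313 (difference -4.28 ± 0.39, adjusted p = 2.4e-09), and AGPS2 read 834, 838 and 629 and 652, 613 and 684 (difference -2.30 ± 0.29, adjusted p = 4.8e-07). For IAA31 (-0.77 ± 0.97, adjusted p = 0.65) and KIN14F (-2.38 ± 1.49, adjusted p = 0.29) the difference was not called, and both fell in LTH as well. Of the 57 auxin genes 19 had a lower change in IR29 and 3 a higher one, against 14.5% and 14.2% of all genes. NAS1 in LTH read 46.2, 1500.4 and 71.8 and 40.8, 1130.0 and 87.7, so that replicate 2 was the high array in both groups (difference -5.42 ± 1.74, adjusted p = 0.023). Regulators with opposite calls were MYBAS1, a MYB factor, from 42.2, 179.6 and 49.4 to 7.95, 7.26 and 11.2 in IR29 and from 68.7, 48.7 and 55.5 to 686, 553 and 591 in LTH (genotype difference -6.47 ± 0.58, adjusted p = 1.9e-09), and CML29, a calmodulin-like protein, from 131, 309 and 117 to 19.9, 12.2 and 36.6 and from 123, 132 and 100.5 to 979.9, 782 and 816 (difference -5.88 ± 0.44, adjusted p = 7.6e-11). Outside the regulators, FON1, a CLAVATA1-like receptor kinase, went from 48.2, 83.2 and 67.1 to 1.78, 8.56 and 14.5 in IR29 and from 41, 47.8 and 51 to 153, 208 and 212 in LTH (genotype difference -5.45 ± 0.55, adjusted p = 1.5e-08). FH10, a formin gene, went from 11.3, 6.92 and 5.03 to 70, 68.1 and 57.9 in IR29 and from 184, 135 and 162 to 21.4, 33.5 and 26.4 in LTH (genotype difference 5.73 ± 0.49, adjusted p = 7.5e-10).

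Other lists differed between the genotypes in their counts. Over all genes 24.5% rose and 20.3% fell in IR29, and 23.5% rose and 15.9% fell in LTH. A higher change in IR29 was called for 14.2% of all genes and a lower one for 14.5%. Glutaredoxins and thioredoxins are small redox proteins. Of 37 such genes, peroxiredoxins included, 11 rose and 10 fell in IR29, 16 rose and 3 fell in LTH, and 13 had a lower and 3 a higher change in IR29. GRXC10, a glutaredoxin gene, read 199.9, 90.8 and 367 at 48 h and 41.1, 3.95 and 10.5 after rewarming in IR29, and 34.4, 57.6 and 128 and 61.9, 183 and 105 in LTH (difference -4.72 ± 0.84, adjusted p = 8.8e-05, limma). Dehydrins and LEA proteins, which protect drying cells, were not called in IR29 in any of 7 genes by their brightest probe set. With only the compared groups or without 48 h replicate 3, 1 of them rose. The dimmer probe set of Dhn1 fell (-1.92). In contrast 4 of the 7 rose in LTH and 3 had a lower change in IR29. Of the 25 aquaporins 11 rose and 2 fell in LTH, and 8 had a lower and 1 a higher change in IR29. TIP2;1, of the vacuole membrane, read 27.5, 594 and 19.3 and then 14, 10.8 and 11.2 in IR29, with replicate 2 high at 48 h, and was called only with that array (-2.51 ± 0.82, adjusted p = 0.016). Abscisic acid genes went the other way: 11 of 69 rose and 32 fell in LTH, and 18 had a higher and 5 a lower change in IR29. Of the 55 expansin, xyloglucan endotransglucosylase and cellulose synthase genes 7 rose and 6 fell in LTH, both shares under those of all genes. In this list 13 changes were lower and 3 higher in IR29.

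Some rises were of nearly the same size in both genotypes. TIP1 rose by 4.47 in IR29 and 4.42 in LTH, and the difference of 0.05 ± 0.83, adjusted p = 0.98 was not called in limma. PDIL2-3 rose by 5.00 and 4.91 (0.09 ± 0.48, adjusted p = 0.93), and HSFB2C by 3.63 and 3.70 (-0.07 ± 1.18, adjusted p = 0.98). With standard errors of 0.48 to 1.18 log2 units, differences well above 2-fold could have gone uncalled, and equality is not shown. BIP1 rose in both, but by 5.44 in IR29 and 3.46 in LTH (IR29 minus LTH 1.97 ± 0.30, adjusted p = 9.5e-06). Of 25 heat shock proteins 1 had a higher change in IR29 (HSP16.0, 4.08 ± 1.04, adjusted p = 0.0042) and 1 a lower one. Among all genes 14.2% had a higher and 14.5% a lower change.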

How the data were processed

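RNA of seedling leaves was hybridised to 36 Affymetrix rice genome arrays, 3 for each of 12 groups of genotype and treatment. The authors read the arrays with GCOS and normalized them in dChip; the deposited values are linear intensities, 1 per probe set and array, of 57258 probe sets. No depth applies to arrays, and the number of arrays limits the precision. By the study's methods each soil plate was a biological replicate and held both genotypes; the labels do not tie a replicate number to a plate, and p-values measure the spread between these arrays.

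Values below 1 (20 in all) were set to 1 and log2 transformed. A model of 12 group means was fitted in limma 3.58.1 (R 4.3.3) with an intensity trend, and p-values were adjusted over all probe sets by the Benjamini-Hochberg method. Changed means an adjusted p below 0.05 and at least 2-fold. GEO's platform table gave 1 gene to 22436 probe sets, several to 95 and none to 34727; the brightest probe set stood for each of 17905 genes, so that not called refers to that probe set, and 2380 genes carried a name. The fit was tested on simulated data with known changes.

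The comparison, its gene lists and the rule for named genes were chosen with earlier results of these data known. Named genes were the 12 largest rises and falls with no overlap of arrays and a mean of at least 100 units, the 5 largest genotype differences in each direction, up to 4 called and 2 bright uncalled members of each list, and the factors the study names. Of the lists fixed at the outset 39 had members, and 5 were added after the values were seen. Genes outside the rule are named as such. Promoter and protein sequences were not used here. Alternatives were quantile normalization, median centring, a floor of 3.16 (the 20th percentile), dropping the 40% dimmest probe sets, the replicate number as a block, only the compared groups, no intensity trend, no fold minimum, an added difference of 100 units, the methods' t-test, 1 probe set per gene, and leaving out each array.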

Additional observations from a re-analysis of the deposited data

Results flagged for a closer look

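In 97 of the 225 named genes the difference between the genotypes was called in limma, and 13 of them were called in opposite directions. These 13 were set apart for that difference, and values are IR29 minus LTH, in log2 units, from the test of the difference itself. Those that rose in IR29 and fell in LTH were LOX9 (6.03), the formin FH10 (5.73), 4CL5 (4.36) and SGR (3.12). Chlorophyll synthesis genes CHLH (-4.15), CHLG (-3.72) and CHLD (-3.2) and the chlorophyll b reductase NOL (-2.42) fell in IR29 and rose in LTH. The same held for MYBAS1 (-6.47), PRXIIE-2 (-6.05), CML29 (-5.88), FON1 (-5.45) and NAC010 (-3.28), a NAC factor whose rewarmed IR29 arrays read 7.1 units or less.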

How the results depend on the processing

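The count of probe sets that rose or fell on rewarming of IR29 stayed within 1.5 times the reported 8448 and 8275 under quantile normalization, median centring, the higher floor, dropping dim probe sets, the compared groups alone and no intensity trend. Leaving out 1 array gave 7772 to 8523 that rose and 7558 to 7943 that fell in IR29, 7252 to 7844 and 6435 to 6862 in LTH, 4810 to 5612 higher and 4687 to 5268 lower for the difference between genotypes, 5475 to 5908 and 7265 to 7839 for IR29 48 h cold against control, and 4500 to 4742 and 6003 to 6455 for IR29 recovery against control. With 1 probe set per gene, which tests fewer features, the counts were 4456 and 3750 in IR29, 4286 and 2924 in LTH, 2652 and 2760 for the difference, 2122 and 4172 for 48 h cold against control and 2185 and 3460 for recovery against control. Asking for a difference of 100 units in addition gave, in that order, 3790 and 3469, 3422 and 3170, 2741 and 2529, 2223 and 3243, and 1945 and 2824. The methods' t-test with Benjamini-Hochberg adjustment called 5066 falls in IR29, and with no fold minimum 7731 probe sets were higher in recovery than in control; the cause of neither was tested. Rises made up 50.5% of the calls in IR29 and 56% under median centring, which moved the median change of all probe sets from -0.03 to 0.07.

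Deviations of same-numbered 48 h and recovery arrays correlated at -0.07, -0.06 and -0.09 in IR29 and at 0.25, -0.11 and -0.14 in LTH, so the numbers were not taken to pair the samples. With the replicate block 8483 probe sets rose and 8277 fell.

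Of the named genes printed here 103 were called, and 1210 of their 1233 values under alternatives kept the call, 23 lost it and 0 reversed. The losses fell on AOS4, CHLI, GluC, LAC4, NOL, RCABP89 and TIP2;1. Of genes not called, AMY1.3 ranged from -1.47 to 0.62 and CAB2R from -0.55 to 0.29 with 1 array left out, crossing 0. Over all 225 named genes, 29 called genes had another probe set, of which 22 were called the same way, 1 the opposite way and 6 were not called. Of 27 genes not called that had another probe set, it was called in 11, down in 10 and up in 1. Dim genes near the bottom of the scale have changes that depend on the floor, and 3 arrays per group limit the precision of each.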
